A study of Mus musculus with 2 samples.

Results

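The metallothioneins Mt1 and Mt2 and 6 genes that sense or move zinc were measured in embryonic mouse liver. The 8 genes were chosen by name, for their role in metal handling, out of 43346 mouse genes in the tables. They are Mt1, Mt2, the transcription factor gene Mtf1, the exporter genes Slc30a1 and Slc30a10, and the importer genes Slc39a4, Slc39a8 and Slc39a14. All 8 were found by symbol. The data are poly(A)+ RNA-seq of liver from C57BL/6J embryos at embryonic day 18, without any treatment or altered allele. A single group holds 2 libraries, labelled biological replicates 2 and 1, from pooled male and female littermates. With 1 group there is no contrast between conditions, so the libraries are described side by side and no p-value is given. Nothing in the labels says what separates the replicates beyond their number, and their spread may be partly technical.

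Metallothioneins are small cysteine-rich proteins that bind zinc and copper, and the liver before birth is known as a rich site of them. MTF-1, the product of Mtf1, is a zinc finger factor that binds DNA when zinc is plentiful and switches on the metallothioneins and Slc30a1. It does so at metal response elements, short promoter sequences around the cores TGCACNC and TGCGCNC. Most Slc30a (ZnT) proteins carry zinc out of the cytosol, and most Slc39a (ZIP) proteins carry it in.

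The libraries held 139889938 expected counts in replicate 2 and 163766625 in replicate 1, an expected count being an estimated number of fragments per gene. Mouse genes took 97.9% of them in replicate 2 and 97.2% in replicate 1. Replicate 2 had 41 counts of Xist, the RNA of the inactive X chromosome, and 18351 counts of 4 Y-linked genes. Replicate 1 had 157187 counts of Xist and 8 of the Y-linked genes. That goes against the label of pooled sexes in both libraries. Pancreas acinar markers summed to 94 counts in replicate 2 and 5930 in replicate 1, over 6 genes. The liver markers were high in both libraries, with albumin (Alb) at 75756 TPM in replicate 2 and 75317 TPM in replicate 1. TPM is a level scaled by transcript length and to a fixed total of transcripts in each library.

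Sequences before the RefSeq starts of Mt1, Mt2 and Slc30a1 are shown because these genes are reported MTF-1 targets and only the metallothioneins differed beyond 2-fold between the libraries. Each line gives the 250 bases before the gene's RefSeq start on GRCm38.p6, plus strand, with matches to the cores TGCACNC or TGCGCNC on either strand in capitals. The windows are chr8:94178839-94179088 for Mt1, chr8:94172368-94172617 for Mt2 and chr1:191906531-191906780 for Slc30a1.
Mt1: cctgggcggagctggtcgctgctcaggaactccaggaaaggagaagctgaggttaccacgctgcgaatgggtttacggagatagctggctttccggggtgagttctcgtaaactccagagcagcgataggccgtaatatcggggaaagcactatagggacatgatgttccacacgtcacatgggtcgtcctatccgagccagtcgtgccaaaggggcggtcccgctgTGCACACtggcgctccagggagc
Mt2: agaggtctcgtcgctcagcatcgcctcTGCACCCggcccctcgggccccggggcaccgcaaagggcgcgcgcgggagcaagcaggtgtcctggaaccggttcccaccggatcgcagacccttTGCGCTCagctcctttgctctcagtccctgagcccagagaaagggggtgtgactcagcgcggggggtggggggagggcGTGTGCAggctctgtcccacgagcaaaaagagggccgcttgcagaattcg
Slc30a1: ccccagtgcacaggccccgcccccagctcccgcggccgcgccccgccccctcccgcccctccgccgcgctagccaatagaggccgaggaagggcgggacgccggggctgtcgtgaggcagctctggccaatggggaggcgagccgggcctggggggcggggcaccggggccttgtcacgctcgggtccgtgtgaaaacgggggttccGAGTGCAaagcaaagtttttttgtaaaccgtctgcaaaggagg
The capitals mark 1 match before the start of Mt1, 3 before that of Mt2 and 1 before that of Slc30a1.

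The search ran on windows of 300 bases, the 250 above and the 50 that follow the start, and overlapping matches were merged. Mt2 held 4 sites and Mt1 held 3, of which tgcactc began at base 3 and tgcgctc at base 21 counted from the RefSeq start. Slc30a1 and Slc30a10 held 2 each. Of all 32851 RefSeq windows of that length, 25.7% held at least 1 site, 6.14% at least 2, 1.31% at least 3 and 0.295% at least 4. Those windows were not matched for their share of G and C bases, which had a median of 52.7%. That share was 60.7% for Mt1, 67.7% for Mt2, 73% for Slc30a1 and 62.7% for Slc30a10, and its part in the site counts was not tested. Slc39a8 held 1 site in the second of its windows and none in the first, and Mtf1 held none. Of the 6 genes with a window, 5 held a site, against 10 of 19 other metallothionein and zinc transporter genes. Both are counts of genes, some with more than 1 window, while the percentages above are of windows. RefSeq and GENCODE M21 place the starts of these genes differently. GENCODE begins Mt2 at base 94172664 and Mt1 at base 94179082 of chromosome 8, while RefSeq begins them at 94172618 and 94179089. Where transcription begins in this liver was not tested. Elements outside the windows, also those more than 50 bases past a RefSeq start, were not searched. The site counts are thus of these windows and need not be those of the whole promoters. A match of letters is a description and does not show binding.

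The metallothioneins stood far above the other 6 genes. Mt1 (ENSMUSG00000031765.7) had 3181 TPM in replicate 2 and 1166 TPM in replicate 1, a mean level of 2174 ± 1425 TPM (SD, n = 2). Mt2 (ENSMUSG00000031762.6) had 915.1 TPM in replicate 2 and 367.4 TPM in replicate 1, a mean of 641 ± 387 TPM (SD, n = 2). By mean TPM they ranked 34 and 147 among 21474 protein-coding genes. Together they held 0.410% of all TPM in replicate 2 and 0.153% in replicate 1. They made up 97.3% of the summed TPM of the 8 genes in replicate 2 and 93.0% in replicate 1. The summed level of all 8 genes was 4212 TPM in replicate 2 and 1648 TPM in replicate 1, while the 6 others summed to 115.5 TPM in replicate 2 and 114.8 TPM in replicate 1.

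Among the 6 others, Slc39a14 was highest by TPM over all its transcripts. It encodes ZIP14, an importer of zinc, manganese and iron not bound to transferrin, and liver is a main site of it. Its level was 49.9 TPM in replicate 2 and 41.6 TPM in replicate 1. Slc39a4 encodes ZIP4, best known for zinc uptake in the intestine, and had 31.6 TPM in replicate 2 and 41.5 TPM in replicate 1. Slc30a10, a manganese exporter, had 13.95 TPM in replicate 2 and 12.4 TPM in replicate 1. Slc39a8 encodes ZIP8, an importer of manganese and zinc, and had 10.4 TPM in replicate 2 and 10.3 TPM in replicate 1. Slc30a1 encodes ZnT1, the zinc exporter of the cell surface, and had 5.24 TPM in replicate 2 and 4.67 TPM in replicate 1. Mtf1 was lowest, at 4.34 TPM in replicate 2 and 4.32 TPM in replicate 1.

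**Figure D1:**
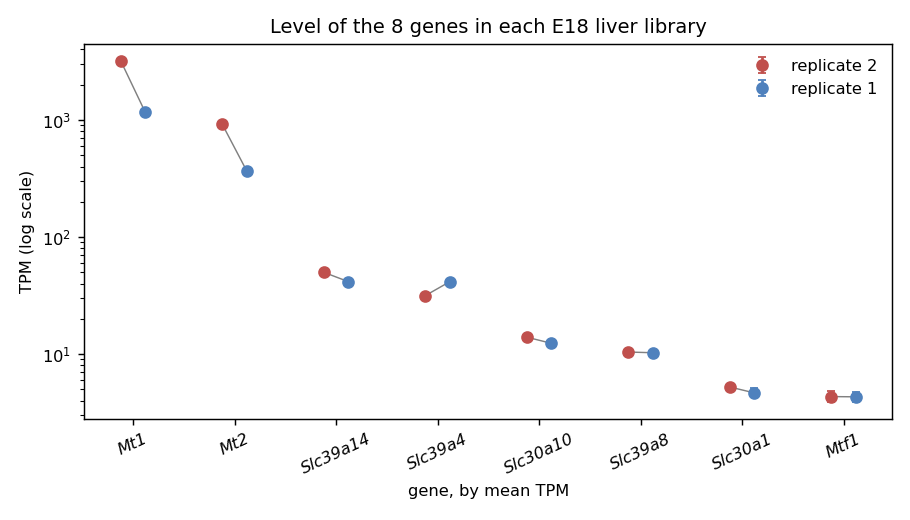
TPM (log axis) of the 8 genes in replicate 2 (left, red) and replicate 1 (right, blue); bars are the intervals the authors deposited for each library, mostly smaller than the points. Mt1 and Mt2 lie above all others in both libraries and are the pair that slopes most between them.

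The order by mean TPM was Mt1, Mt2, Slc39a14, Slc39a4, Slc30a10, Slc39a8, Slc30a1 and Mtf1. No neighbours in this order had overlapping values, but some gaps were small. Slc39a14 and Slc39a4 came within 0.13 TPM of each other, since both stood near 41.5 TPM in replicate 1, and they cannot be ranked in that library. Slc30a1 and Mtf1 were 0.33 TPM apart at their closest. The ratio of Mt1 to Mt2 was 3.48 in replicate 2 and 3.17 in replicate 1. The ratio of Slc39a14 to Slc39a8 was 4.79 in replicate 2 and 4.05 in replicate 1, and that of Slc39a14 to Slc30a10 was 3.58 in replicate 2 and 3.36 in replicate 1. These ratios moved far less than the metallothionein levels did. Slc39a4 over Slc30a1 was 6.03 in replicate 2 and 8.89 in replicate 1.

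The protein-coding genes nearest to Mt1 in log2(TPM + 1) over the 2 libraries were Rpl41, Rps15 and C3, at distances of 0.76 to 0.87 log2 units. Rpl41, a ribosomal protein gene, had 1978 TPM in replicate 2 and 1456 TPM in replicate 1. Those nearest to Mt2 were Fn1, BC100530 and Rpl15, at distances of 0.49 to 0.61. Slc39a14 had much closer neighbours, Ptov1, Lonp1 and Wdr26, at distances of 0.015 to 0.033. Such distances also depend on how many genes lie near a level. By mean TPM Slc39a14 ranked 1558 among 21474 protein-coding genes, against 34 for Mt1 and 147 for Mt2. The wider distances of that pair are thus not read as a trait of the metallothioneins.

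The difference between the libraries was measured on counts scaled by TMM, with 0.5 added, as a log2 ratio of replicate 2 over replicate 1. Mt1 had 129486 counts in replicate 2 and 58931 in replicate 1, a log2 ratio of 1.30, or 2.46-fold. Mt2 had 39135 counts in replicate 2 and 19485 in replicate 1, a log2 ratio of 1.17, or 2.25-fold. Both were higher in replicate 2. The 95% interval from counting error alone was 1.29 to 1.32 for Mt1 and 1.15 to 1.20 for Mt2. Both intervals lie above 1, the 2-fold line, but with 1 library on each side there is no biological error to set the ratios against. Liver is a mix of cell types, and in bulk RNA more cells of a type and more RNA per cell cannot be told apart.

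Of the 8 genes, 2 lay beyond 2-fold and higher in replicate 2, and 0 lay beyond 2-fold and lower. Of 14955 genes with a mean count of at least 50, 0.348% were beyond 2-fold and higher in replicate 2, 1.47% were lower, and 1.82% lay beyond 2-fold in either direction. By log2 ratio Mt1 ranked 19 and Mt2 ranked 26 among those genes. Among the 757 protein-coding genes that averaged 100 TPM or more, a limit chosen after the values were seen, Mt1 and Mt2 had the highest and the next highest log2 ratios. The gene after them was Gm2000, at a log2 ratio of 1.03, and then Ifitm6 at 0.63.

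**Figure D2:**
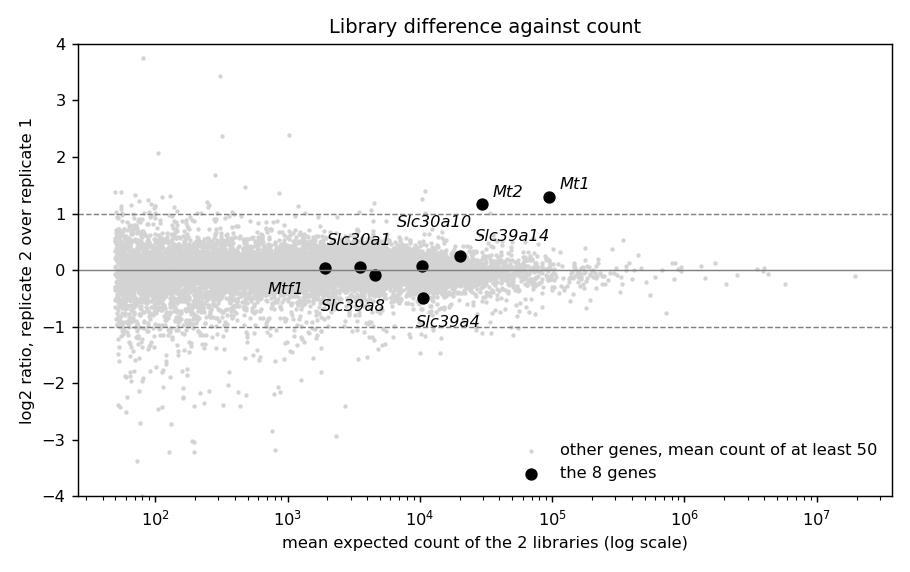
Log2 ratio of replicate 2 over replicate 1 (vertical axis) against the mean expected count (log axis) for 14955 genes in grey, with the 8 genes in black and dashed lines at 2-fold; 20 genes lie beyond the axis. Mt1 and Mt2 stand above the upper line at counts where few genes do, and the other 6 lie between the lines.

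The factor, the exporters and the importers differed much less. Mtf1 had 1828 counts in replicate 2 and 2010 in replicate 1, a log2 ratio of 0.03. Slc30a1 had 3398 counts in replicate 2 and 3649 in replicate 1, a log2 ratio of 0.06. Slc30a10 had 10103 counts in replicate 2 and 10822 in replicate 1, a log2 ratio of 0.07. The counting intervals of Mtf1 (-0.06 to 0.12) and Slc30a1 (-0.01 to 0.13) include 0, so a difference beyond counting error was not detectable in either.

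Among the importers, Slc39a8 had 4202 counts in replicate 2 and 5017 in replicate 1, a log2 ratio of -0.09. Slc39a14 had 20875 counts in replicate 2 and 19598 in replicate 1, a log2 ratio of 0.26. Slc39a4 ran the other way from the metallothioneins, with 8163 counts in replicate 2 and 12961 in replicate 1, a log2 ratio of -0.50. All 8 genes had whole expected counts in both libraries, as when no fragment is shared out in part with another gene. Mt1 and Mt2 are paralogs, and the longest run that their GENCODE M21 transcripts of 549 and 511 bases share exactly is 20 bases.

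Markers of cell types also differed between the libraries, in differing directions, and their part in the differences above was not tested. All 5 neutrophil markers were higher in replicate 2, with log2 ratios of 0.26 to 0.51 and a summed level of 12644 TPM in replicate 2 and 8766 TPM in replicate 1. All 5 erythroid markers were slightly lower in replicate 2 (-0.25 to -0.07), and so were all 5 cholangiocyte markers (-0.63 to -0.22). The 5 hepatocyte markers ranged from -0.76 for Ttr to 0.13 for Apoa1. The 5 macrophage markers were uneven, with a median of -0.07, from -1.05 for Clec4f, a marker of Kupffer cells, to 0.18 for Lyz2. So were the 5 endothelial markers (-0.14 to 0.30) and the 5 stellate markers (-0.36 to 0.13). The libraries also differ in Xist and Y-linked counts, as given above. A difference tied to sex and any other difference between the libraries cannot be told apart here. Beside Slc39a4, which is known from the gut, the 5 gut markers were uneven. Lgals4 had 39.2 TPM in replicate 2 and 30.0 TPM in replicate 1, Fabp2 had 5.37 TPM in replicate 2 and 12.01 TPM in replicate 1, and the intestinal factor genes Cdx1 and Cdx2 had 12 counts or fewer in each library. The pancreas acinar markers that marked replicate 1 also stand beside the higher Slc39a4 of that library, and their part was not tested.

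Other genes reported to answer to MTF-1 had smaller ratios. Of 8 such genes, the 2 beyond 2-fold were Mt1 and Mt2 themselves, beside 1.82% of all genes. Ndrg1, a stress-responsive gene, had 174.2 TPM in replicate 2 and 148.9 TPM in replicate 1, a log2 ratio of 0.12 on scaled counts. Selenow, a selenoprotein gene, had a log2 ratio of 0.11, and Csrp1 of 0.01. Gclc, which encodes the catalytic subunit for glutathione synthesis, had a ratio of -0.23. Slc39a10, an importer gene that MTF-1 is reported to repress, had 1110 counts in replicate 2 and 1738 in replicate 1, a ratio of -0.48. The median log2 ratio of all 8, with Mt1 and Mt2 among them, was 0.08, against 0.00 over all genes. Without that pair, the listed genes ranged from -0.48 for Slc39a10 to 0.12 for Ndrg1.

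Metallothioneins are also known to be induced by glucocorticoids and by interleukin-6. Of 10 genes of those inputs, 9 had enough counts and 0 of them were beyond 2-fold, near the 1.82% of all genes. Per1, a clock gene that glucocorticoids induce, had the highest ratio among these 9, at 0.43, with 8.54 TPM in replicate 2 and 6.01 TPM in replicate 1. Fkbp5, another glucocorticoid target, had a ratio of 0.13, and Tsc22d3 had -0.20. Socs3, a target of the interleukin-6 pathway, had 0.03, and Stat3 had 0.11. Il6 itself had 19 counts in replicate 2 and 11 in replicate 1, too few to compare.

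In the copper list, 0 of 10 genes were beyond 2-fold, near the 1.82% of all genes, and 7 had a ratio below 0, as did 49.96% of all genes. The copper pumps Atp7a and Atp7b had the highest ratios of that list, at 0.42 and 0.37. Atp7b had 8.47 TPM in replicate 2 and 6.10 TPM in replicate 1. The 9 genes for manganese and shared divalent metals ranged from -0.13 for Arg1, the manganese enzyme arginase, to 0.26 for Slc39a14, with 0 beyond 2-fold. The iron exporter gene Slc40a1 had 72.9 TPM in replicate 2 and 71.1 TPM in replicate 1.

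The 5 transporters chosen were part of a wide set. Of 24 genes of the Slc30a and Slc39a families, 19 had at least 1 TPM in both libraries, against 28.4% of all mouse genes and 53.9% of protein-coding genes. The 5 below that level in both were Slc30a2, Slc30a3, Slc30a8, Slc39a2 and Slc39a12. Slc39a5, which encodes ZIP5, had the highest level of the 24, at 73.4 TPM in replicate 2 and 81.5 TPM in replicate 1. Slc39a14 was next, and Slc39a7, an importer gene of the endoplasmic reticulum and Golgi, had 46.4 TPM in replicate 2 and 40.5 TPM in replicate 1. Slc39a4 was below Slc39a7 in replicate 2 and above it in replicate 1. The highest Slc30a gene was Slc30a9, at 18.1 TPM in replicate 2 and 17.4 TPM in replicate 1.

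The summed level of the 10 Slc30a genes was 66.3 TPM in replicate 2 and 62.8 TPM in replicate 1. That of the 14 Slc39a genes was 269.38 TPM in replicate 2 and 269.35 TPM in replicate 1. Of the 21 transporters with a mean count of at least 50, 0 were beyond 2-fold and 0 beyond 1.5-fold, a limit that 5.71% of all genes passed (1.62% higher and 4.09% lower in replicate 2). The widest ratio among the 21 was the -0.50 of Slc39a4. The metallothionein genes known from brain and squamous epithelium had almost no counts. Mt3 had 1 count in replicate 2 and 0 in replicate 1, and Mt4 had 0 counts in replicate 2 and 2 in replicate 1.

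**Figure D3:**
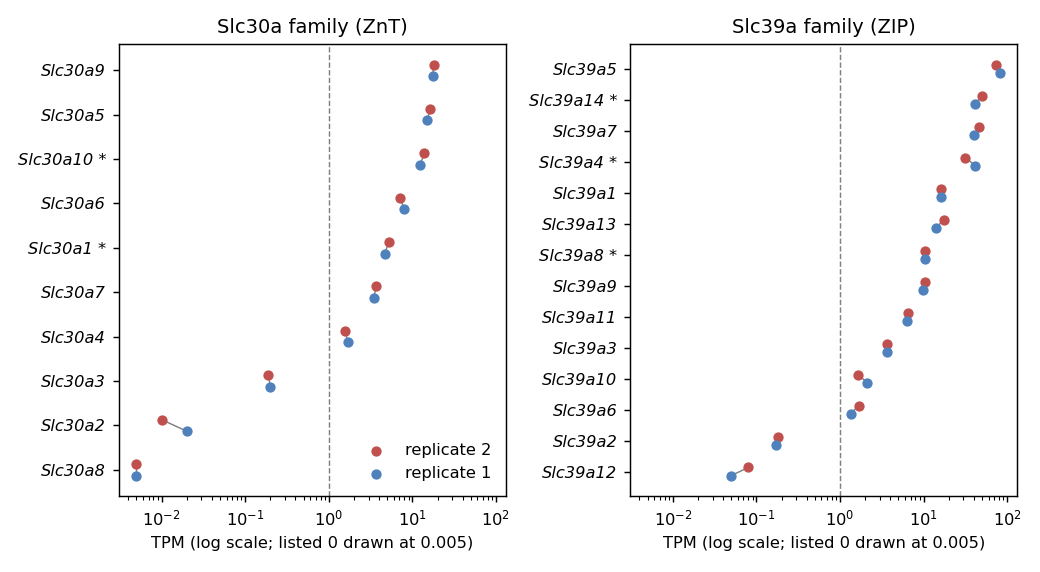
TPM (log axis) of 10 Slc30a genes (left) and 14 Slc39a genes (right), with replicate 2 in red above replicate 1 in blue, the dashed line at 1 TPM and asterisks on the 5 chosen genes. The 2 libraries nearly coincide for most genes, and 5 genes lie left of the line in both.

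The transcript tables give each transcript's percent of its gene's TPM. Mt1, Mt2, Slc30a10 and Slc39a4 have 1 transcript each in the tables, so its 100% is fixed by the annotation. Slc30a1 has 2, of which Slc30a1-201 held 100% in both libraries. Mtf1, Slc39a8 and Slc39a14 have 5 to 13 transcripts, and each had the same leading transcript in both libraries. Slc39a8 was led by Slc39a8-206, with 54.5% in replicate 2 and 52.8% in replicate 1. The next were close to each other. Slc39a8-201 held 14.8% in replicate 2 and 17.8% in replicate 1. Slc39a8-205 held 14.95% in replicate 2 and 17.2% in replicate 1, and all of these are protein-coding.

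Mtf1 was led on the TPM scale by a short transcript of 781 bases annotated as a retained intron, Mtf1-204, with 56.1% in replicate 2 and 63.1% in replicate 1. On expected counts the order was turned round. Mtf1-201, the coding transcript of 7631 bases, held 89.7% of the gene's counts in replicate 2 and 86.2% in replicate 1. The coding transcripts of Mtf1 summed to 1.90 TPM in replicate 2 and 1.59 TPM in replicate 1. The gene's level on the TPM scale thus depends on a transcript with 175 counts in replicate 2 and 240 in replicate 1.

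Slc39a14 was led by Slc39a14-202, with 56.3% of the gene's TPM in replicate 2 and 50.9% in replicate 1. Slc39a14-201 held 11.5% in replicate 2 and 9.89% in replicate 1. Transcripts annotated as retained introns held 23.5% in replicate 2 and 30.4% in replicate 1, but on expected counts 9.91% in replicate 2 and 12.3% in replicate 1. Coding transcripts alone gave 38.2 TPM in replicate 2 and 29.0 TPM in replicate 1. Those of Slc39a4 gave 31.6 TPM in replicate 2 and 41.5 TPM in replicate 1. On coding transcripts Slc39a14 was thus above Slc39a4 in replicate 2 and below it in replicate 1.

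**Figure D4:**
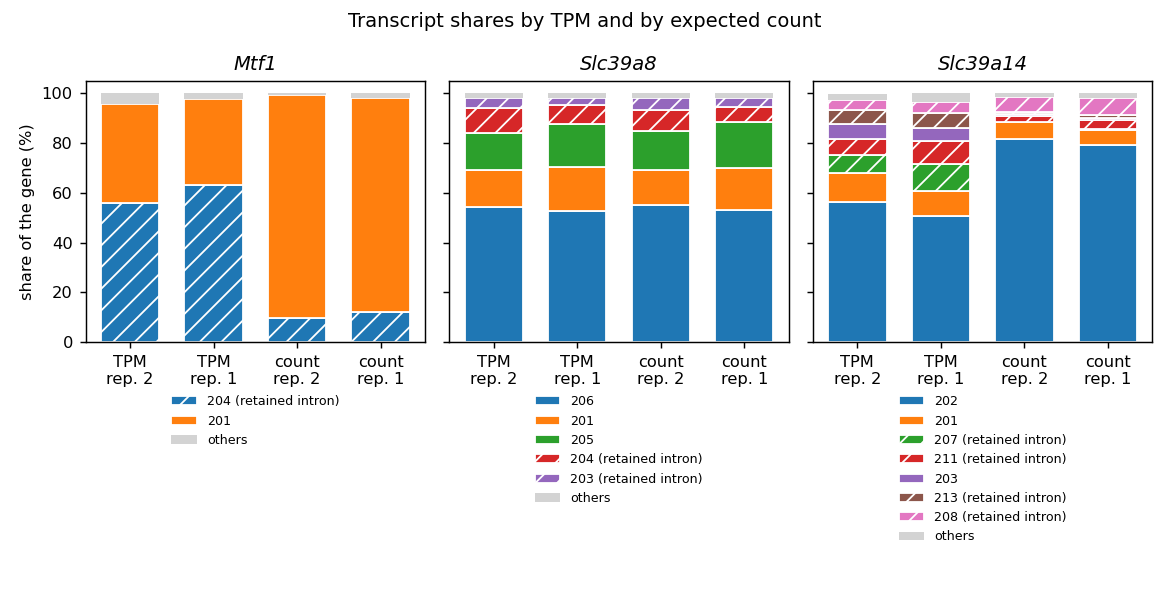
Percent of each gene's TPM (2 left bars per panel) and of its expected counts (2 right bars) held by each transcript of Mtf1, Slc39a8 and Slc39a14, replicate 2 before replicate 1, with retained-intron transcripts hatched. Mtf1 changes its leading transcript with the scale, and Slc39a8 keeps nearly the same shares.

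Slc39a14-201 and Slc39a14-202 differ in their last exon and in exon 5, which is 170 bases long in both and is one of a pair of alternatives. Splice junctions tell the transcripts apart there.

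The deposited junction list, on the older build mm9, counts reads across each splice junction in columns R1 and R2. The list does not say which numbered library each column is, so they are named as in the list. From exon 4, 1170 reads ran into exon 5 of Slc39a14-201 (513 in R2 and 657 in R1) and 9 into that of Slc39a14-202 (3 in R2 and 6 in R1). The exon of Slc39a14-201 thus took 99.2% of them (95% exact binomial interval 98.6% to 99.7%). On the other side, 497 reads ran from the exon of Slc39a14-201 into exon 6 (287 in R2 and 210 in R1) and 91 from that of Slc39a14-202 (52 in R2 and 39 in R1). The share of Slc39a14-201 there was 84.5% (81.3% to 87.4%), and a further 18 reads joined the alternative exons to each other. The intervals cover counting error only.

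On both sides the exon of Slc39a14-201 had most junction reads, while the deposited transcript table gave most of the gene to Slc39a14-202. The last exon of Slc39a14-202 is 3344 bases long and that of Slc39a14-201 is 516 bases. The part of this difference in length in the discrepancy was not tested. The transcript table and the junction list thus give different leading forms of exon 5.

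Junction reads also bore on the metallothioneins. Annotated introns of Mt1 had 127690 reads in R2 and 56818 in R1, and those of Mt2 had 52287 in R2 and 26778 in R1. Scaled by all junction reads, of which R2 had 0.838 times as many as R1, the ratio of R2 over R1 was 2.68 for Mt1 and 2.33 for Mt2. For the other 6 genes the scaled ratio ranged from 0.759 for Slc39a4 to 1.22 for Slc39a14. The ordering of the genes by library difference on mm9 junctions was thus led by the same pair, with Slc39a4 again at the low end.

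The 2 introns of each metallothionein differed. Across the first intron of Mt1 there were 95350 reads in R2 and 34774 in R1, a scaled ratio of 3.27. Across the second there were 32340 reads in R2 and 22044 in R1, a scaled ratio of 1.75. For Mt2 the first intron had 36880 reads in R2 and 17327 in R1, a scaled ratio of 2.54. Its second had 15407 reads in R2 and 9451 in R1, a scaled ratio of 1.94. Both introns of both genes were higher in R2, and more so at the 5′ end. In log2 units the first intron exceeded the second by 0.90 for Mt1 and by 0.38 for Mt2. Among 144 other 3-exon genes with 1 listed transcript and at least 200 reads across each intron, the middle 90% of this difference ran from -0.72 to 0.54, with 1 gene above Mt1 and 18 above Mt2.

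**Figure D5:**
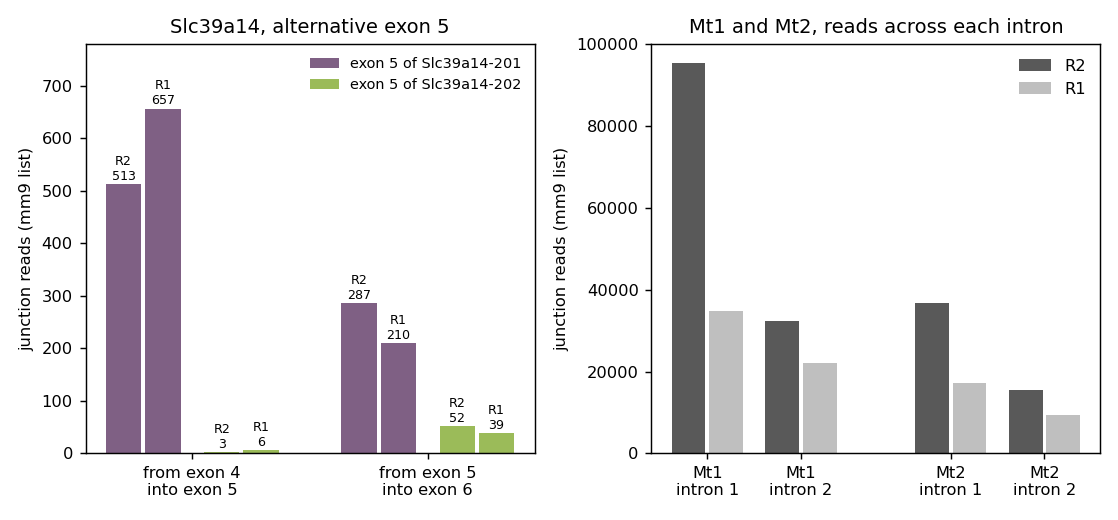
Junction reads in the mm9 list, with R2 left of R1: at left, reads that join the alternative exon 5 of Slc39a14-201 (purple) or Slc39a14-202 (green) to exons 4 and 6; at right, reads across each intron of Mt1 and Mt2. Slc39a14-201's exon has most reads on both sides, and the gap between R2 and R1 is widest at intron 1 of Mt1.

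Mt2 lies next to Mt1 on chromosome 8, on the same strand and upstream of it. Of the junctions listed, 15 joined the neighbours, with 212 reads in R2 and 80 in R1. That was 0.118% of the annotated junction reads of the pair in R2 and 0.0957% in R1. The best supported ran from the end of exon 2 of Mt2 to the start of exon 3 of Mt1, with 113 reads in R2 and 65 in R1. Another joined exon 1 of Mt2 to exon 2 of Mt1, with 33 reads in R2 and 3 in R1. Whether they arose in cells or in library preparation was not tested.

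The authors' mm9 gene table gives a pair of RPKM values per gene, again without a tie to the numbered libraries. Its first value need not be the library of R1, since Mt1 and Mt2 were higher in the first value here but in R2 of the junction list. Mt1 had 389.0 in the first and 139.0 in the second, and Mt2 had 119.7 in the first and 52.3 in the second. The median gene was itself 0.45 log2 units higher in the first, over 9693 genes. With that shift left in, 22.6% of these genes were beyond 2-fold, so this share is not on the scale of the relative values that follow. Relative to that median, Mt1 was 1.04 and Mt2 was 0.75 log2 units higher in the first. Slc39a4 had 5.56 in the first and 7.76 in the second, a relative log2 ratio of -0.93. Slc39a14 had 19.6 in the first and 10.03 in the second, a relative ratio of 0.52. By mean RPKM the order of the 8 genes was that of the mm10 tables, except that Slc39a8, at 3.33, stood above Slc30a10, at 3.21.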

How the data were processed

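Poly(A)+ RNA was measured in 2 libraries of 1 group. The authors deposited, per the file headers and notes, tables on mm10 with GENCODE M4 that hold expected counts, TPM, FPKM and, per transcript, the percent of its gene's TPM. The deposited mm9 tables (ENSEMBL 65) hold RPKM per gene and whole read counts per splice junction. Which aligner and quantifier made them is not given in the sources used here.

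Symbols came from GENCODE M21 (42462 of 43346 identifiers matched). Expected counts were rounded and scaled by TMM in edgeR 4.0.16 (R 4.3.3), with DESeq2 1.42.0 size factors as an alternative. Log2 ratios used genes with a mean count of at least 50 and a pseudocount of 0.5 (this shrinks ratios of genes with low counts). The common biological coefficient of variation was 0.141. The calculation was tested on simulated data. A gene was counted as present at 1 TPM or more in both libraries. Promoter windows were set by RefSeq starts (GRCm38.p6) and matched 6 of the 8 genes. Slc39a4 and Slc39a14 had no entry.

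The genes and lists were chosen with earlier results of these data known. Named genes are the 8, the highest or most different of each list, and the 3 nearest in level to Mt1, Mt2 and Slc39a14; the joint junctions and the alternative exons were chosen after their values were seen. Coordinates of 2 builds were never mixed.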

Additional observations from a re-analysis of the deposited data

How the results depend on the processing

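With 1 group, nothing could be tested, and leaving out either library leaves a value with no spread. The summed level of the 8 genes was 2930 TPM over both libraries and ranged from 1648 TPM without replicate 2 to 4212 TPM without replicate 1. The sum was 1209 counts per 1e+06 mouse counts without length scaling, and 382 on the mm9 RPKM scale. Mt1 and Mt2 held 0.281% of TPM and 0.0862% of mouse counts without length scaling. The ratio of Mt1 to Mt2 was 3.32, and 2.95 on mm9 RPKM. The other counts of genes and ratios of TPM kept to within 1.5 times the reported count, or 1 SD of the reported value, under the settings tried. With 2 libraries, either one alone always lies within 1 SD of their mean. Leaving out a library therefore could not fail that limit, and the limit is loose wherever the libraries differ widely. On the mm10 values, 2 genes lay beyond 2-fold under each scaling, pseudocount and filter. On mm9 RPKM relative to the median gene, Mt1 was 1.04 log2 units higher in the first value but Mt2 only 0.75, below 2-fold. On mm9 junctions, the scaled ratio of R2 over R1 at the second intron was 1.75 for Mt1 and 1.94 for Mt2, also below 2-fold. At the first intron it was 3.27 for Mt1 and 2.54 for Mt2. The log2 ratio of Mt1 was 1.45 and that of Mt2 1.32 on deposited TPM, where the median gene was shifted by 0.11, and 1.26 and 1.13 with the trend on length removed. That setting gave -0.13 for Mtf1, -0.12 for Slc30a1, -0.13 for Slc30a10 and 0.10 for Slc39a14. Deposited TPM gave 0.02 for Slc39a8, so no direction is claimed for the 4 whose sign changed. Slc39a4 kept its sign, at -0.39 on deposited TPM and -0.64 with the length trend removed. Of the 32 alternatives tried for the log2 ratios of the 8 genes, 14 fell outside the gene's counting interval. No paired analysis was possible because there is only 1 group. Mtf1 had 1828 counts in replicate 2 and a counting interval of -0.06 to 0.12, and the interval of Slc30a1 was -0.01 to 0.13. Both cover counting error only. With 1 library on each side there is no biological error to set these ratios against, and that limits what can be said of either gene.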
